A study of Mus musculus with 6 samples.

Results

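The transcripts examined here were those of 50 chaperone and heat shock genes of the mouse, chosen by family: heat shock factors, Hsp70 and Hsp110, Hsp90, the mitochondrial chaperonin, small heat shock proteins, J proteins, co-chaperones and the TRiC ring. Chaperones of the ER (endoplasmic reticulum) were kept apart. Most of the members work in the cytosol, but Hspa9, Hspd1, Hspe1, Trap1, Dnaja3, Dnajc15 and Dnajc19 encode mitochondrial proteins and Hspa13 a microsomal one. Of the 50 members, 48 had a probe matched to them, among 20145 genes with a matched probe, and all 48 were tested. No probe was matched to Hspa1b or Dnajb5. The 6 arrays came from neuro2a (N2a), a mouse neuroblastoma line, transfected with EmGFP-miR RNAi expression vectors and left for 2 days. The 3 control arrays carried RNA of cells given the empty vector, and the 3 knockdown arrays RNA of cells given the vectors against NF-YA and NF-YC. All cells were thus of one line and all were transfected, and no sort for transfected cells is described for them. The labels do not say that arrays of a group came from separate cultures, so p-values measure only the spread between these arrays.

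Chaperones bind unfolded proteins and help them to fold, to stay soluble or to be handed on for degradation. Hsp70 proteins bind short stretches of a chain in cycles driven by ATP, J proteins bring chains to them and start ATP hydrolysis, and nucleotide exchange factors such as Hsp110 release the chain. Heat shock factors bind the heat shock element, repeats of GAA and TTC, and turn on many of these genes after heat or other protein damage, whereas NF-Y binds CCAAT in promoters with its NF-YA, NF-YB and NF-YC subunits. The comparison asks how chaperone transcripts of a neuronal line stood after NF-Y had been lowered.

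The targeted transcripts were lower on every knockdown array. Nfya changed by -0.76 (SE 0.055, limma adjusted p = 0.0013) and Nfyc by -1.81 (SE 0.045, adjusted p = 0.00032). Here a change is the knockdown mean minus the control mean of the normalized signal, which is log2 intensity less the 75th percentile of its array. All 12 markers of sympathetic neuroblastoma were well above background on all 6 arrays, and their summed signal was 249 to 258 times the 75th percentile on control and 237 to 243 on knockdown arrays. Th and Mycn of that list were called lower and none was called higher. At an adjusted p below 0.05 alone, 4 of the 12 fell (33.3%: Phox2a, Stmn2, Th and Mycn) and 3 rose (25%: Gata2, Gata3 and Isl1). The shares of all genes were 15.8% and 15.7%. Of other cell types, 3 of 5 glial markers (summed 0.775 to 0.797 in control and 0.463 to 0.477 in knockdown), 4 of 5 fibroblast markers (0.222 to 0.260 and 0.253 to 0.289) and 3 of 5 macrophage markers (2.25 to 3.23 and 2.11 to 2.59) were well above background on all arrays, and 1 other macrophage marker had no matched probe. The part of these cell type markers in the results was not tested, and in RNA of whole cultures fewer cells of a type and less RNA per cell cannot be told apart. Correlations of the arrays across probes were 0.989 to 0.994 within groups. The 6 arrays lay on 1 slide, with the controls and knockdown array 1 in one row and knockdown arrays 2 and 3 in the other. A fit with the row as a term therefore rests on knockdown array 1 against the controls. It takes the spread of that array from the others, so its changes are given without a p. This fit is among the alternatives counted below, and a call or lost call in it is no measure of robustness.

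Promoter windows of 250 bases before to 50 after a start site were taken from RefSeq (GRCm38.p6) and were found for 39 of the 50 members. They were not found for Cct4, Cryab, Dnajc12, Dnajc2, Dnajc5, Hsf1, Hsp90aa1, Hsp90ab1, Hspa13, Hspa8 and Hspa9. CCAAT on either strand (ATTGG on the other) stood in 23 of 53 member windows (43.4%), beside 37.4% of all 32851 windows in the table. A heat shock element of 3 units was GAANNTTC followed by any 2 bases and GAA, on either strand. It stood in 6 of 53 member windows (11.3%), beside 0.603% of all windows. The 6 windows belonged to Dnajb6, Hspd1, Hspe1 and Hsph1 and were not independent. Overlapping windows of Dnajb6 hold the same site, as do those of Hsph1, where it lies after the start site. Hspd1 and Hspe1 share theirs. Counted by gene, the element stood in 10.3% of the 39 members and 0.662% of all genes with a window. A shorter form of 2 units, GAANNTTC or TTCNNGAA, stood in 34.0% of member windows and 15.1% of all. The longer motif contains the shorter one, and such matches describe letters and not bound sites.

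The stretches below belong to Hspa1a and Hspb1, the members called higher, to Hspa1b, the copy of Hspa1a, and to Hsph1 and Cdc37 as examples of members that changed and hold CCAAT. Capitals mark CCAAT or ATTGG and, in Hspa1a, Hspa1b and Hspb1, also the heat shock motif of 2 units. All are written 5′ to 3′ on the strand of the gene and end before the start site. They lie at chr17:34972157-34972286, minus strand (Hspa1a), chr17:34959239-34959368, minus strand (Hspa1b), chr5:135887679-135887838, plus strand (Hspb1), chr5:149636346-149636465, minus strand (Hsph1) and chr9:21150005-21150084, minus strand (Cdc37).
Hspa1a: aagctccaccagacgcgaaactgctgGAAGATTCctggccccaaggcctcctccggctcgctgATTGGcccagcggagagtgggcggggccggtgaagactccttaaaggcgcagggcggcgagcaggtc
Hspa1b: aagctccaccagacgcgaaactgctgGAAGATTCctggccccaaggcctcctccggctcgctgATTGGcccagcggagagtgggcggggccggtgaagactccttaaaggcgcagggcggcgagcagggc
Hspb1: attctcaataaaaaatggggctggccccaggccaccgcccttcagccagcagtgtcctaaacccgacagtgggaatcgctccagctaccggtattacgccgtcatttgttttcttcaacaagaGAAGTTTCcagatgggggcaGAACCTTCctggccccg
Hsph1: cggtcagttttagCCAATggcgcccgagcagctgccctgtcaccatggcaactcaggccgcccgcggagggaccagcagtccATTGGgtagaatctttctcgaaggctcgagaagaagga
Cdc37: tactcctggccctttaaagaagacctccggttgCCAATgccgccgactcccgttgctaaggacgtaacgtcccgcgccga
Hspa1a and Hspa1b, neighbouring copies that encode the stress-inducible Hsp70, had 129 of these 130 bases and 247 of 250 upstream bases in common. Both hold 1 GAANNTTC match and 1 ATTGG. The Hspb1 window held no CCAAT but 2 matches to the motif of 2 units.

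The following members are shown for the density of their motifs. Stip1 had 4 CCAAT boxes and Cct7 had 3, whereas Hspe1 and Dnajb6 held the heat shock element of 3 units, and capitals mark CCAAT or ATTGG in the first pair and the heat shock element in the second. The stretches lie at chr19:7040077-7040276, minus strand (Stip1), chr6:85451305-85451434, plus strand (Cct7), chr1:55088053-55088082, plus strand (Hspe1) and chr5:29735798-29735897, plus strand (Dnajb6).
Stip1: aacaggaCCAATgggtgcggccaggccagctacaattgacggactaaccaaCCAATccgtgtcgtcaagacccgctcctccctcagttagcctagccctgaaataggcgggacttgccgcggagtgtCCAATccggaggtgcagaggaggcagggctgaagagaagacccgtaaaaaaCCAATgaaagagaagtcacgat
Cct7: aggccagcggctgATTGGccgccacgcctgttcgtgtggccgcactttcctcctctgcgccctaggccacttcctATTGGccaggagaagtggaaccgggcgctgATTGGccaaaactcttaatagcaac
Hspe1: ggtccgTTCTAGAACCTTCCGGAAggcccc
Dnajb6: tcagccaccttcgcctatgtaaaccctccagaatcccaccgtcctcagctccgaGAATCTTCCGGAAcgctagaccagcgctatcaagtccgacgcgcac
In Hspe1 the capitals join 2 overlapping matches. Hspe1 and Hspd1 are divergent genes whose windows shared 285 of 300 bases, and this stretch lies upstream of the start sites of both of those windows.

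Most chaperone transcripts stayed close to their control level after NF-Y knockdown. With a fold change above 1.5 and an adjusted p below 0.05 required, 2 of 48 members were called higher (Hspa1a and Hspb1) and 1 was called lower (Dnajc12). Over all 16493 genes tested, 3.9% were called higher and 5% lower, and the members' shares of 4.17% and 2.08% lay near or under these. Without the fold minimum, 7 members (14.6%) rose, beside 15.7% of all genes, and 3 (6.25%) fell, beside 15.8%. Those that rose were Hspa1a, Hspb1, Dnajc5, Dnajb4, Hsph1, Hspa4 and Dnaja1, and those that fell were Dnajc12, Hspb8 and Cdc37. This split depended on the scaling, as did that of all genes. It was 11 higher (22.9%) and 2 lower (4.17%) after quantile normalization, beside 18.2% and 15.7% of all genes, and 2 and 2 (4.17% each) with the median of each array in place of the 75th percentile, beside 5.2% and 15.2%. With normexp background correction it was 11 and 7 (22.9% and 14.6%, beside 18.3% and 17.1%), and with normexp and quantile normalization 14 and 2 (29.2% and 4.17%, beside 20.4% and 17%). In each of these 4 settings Hspa1a was the only member called higher and 1 member was called lower.

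The members' changes lay close to 0. Their median change was 0.029, beside 0.0053 over all genes, and it was -0.088 with the median of each array, a scaling that shifted the median of all genes by -0.12. With quantile normalization it was 0.090, and with normexp and quantile normalization 0.094, while the median of all genes stood at 0.0050 and 0.0064. The median absolute change was 0.094 for the members and 0.20 for all genes, and the middle of the distribution, between the quartiles, ran from -0.082 to 0.147 and from -0.19 to 0.20. For 43 of 48 members the 95% interval of the change lay within 1.5-fold in both directions, as it did for 10742 of 16493 genes. The members' probes were also measured more tightly, with a median SE of 0.049 beside 0.064 for all genes, and 47 of 48 were well above background on all 6 arrays. On 16 members (33.3%) every knockdown array lay above every control, beside 27.7% of all genes, and on 12 (25%) every one lay below, beside 27%.

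**Figure D1:**
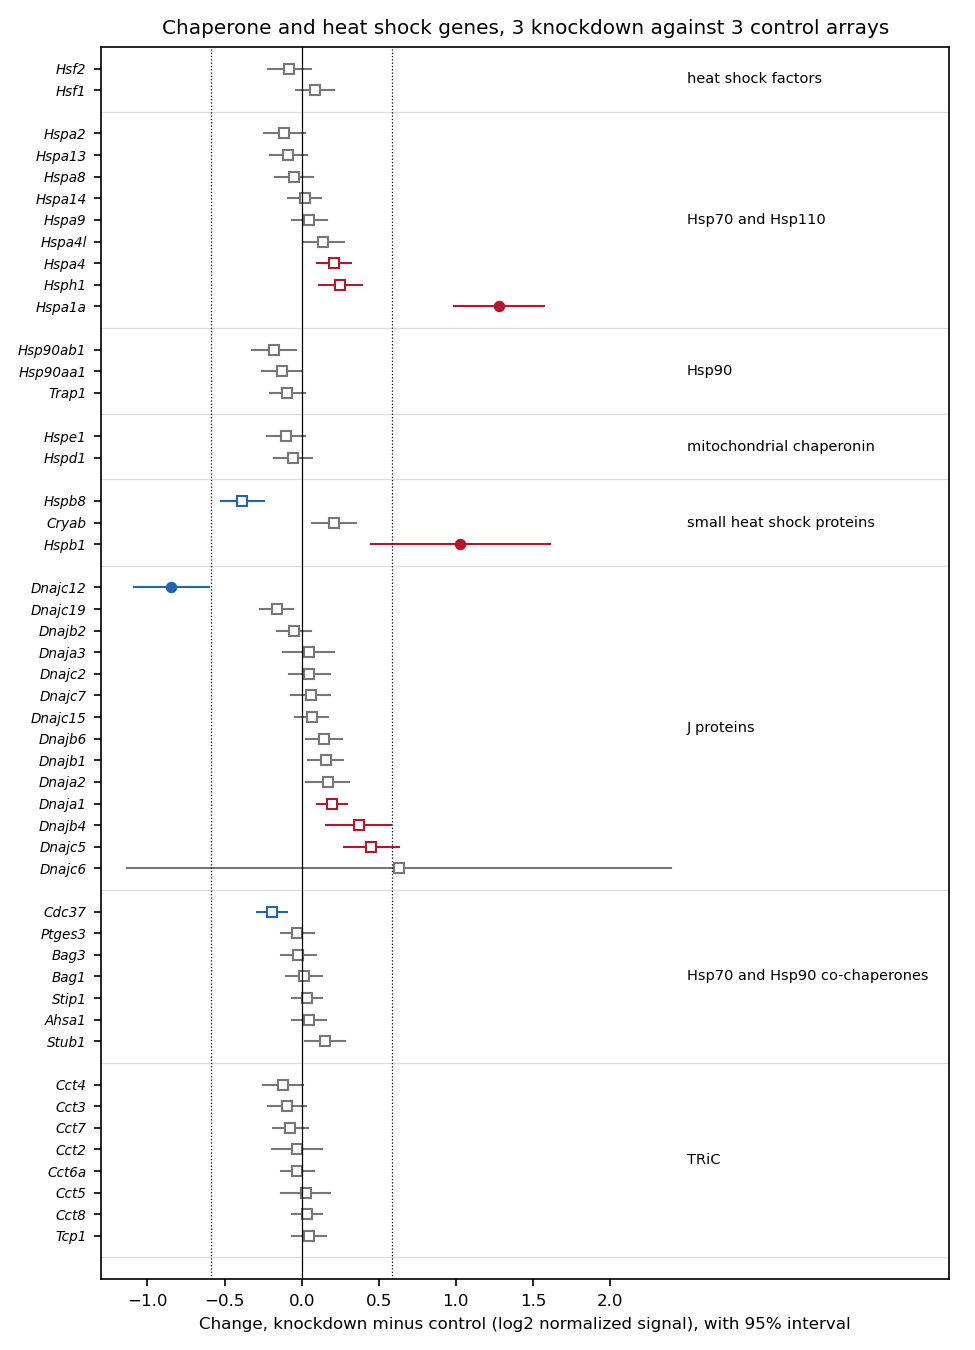
Change of each of the 48 tested members, knockdown minus control in log2 normalized signal, with its 95% interval and grouped by role. Filled circles are called members, coloured open squares passed the adjusted p alone, grey squares did not, and dotted lines mark 1.5-fold. Apart from Hspa1a, Hspb1, Dnajc12 and the dim Dnajc6, points lie within the dotted lines.

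**Figure D2:**
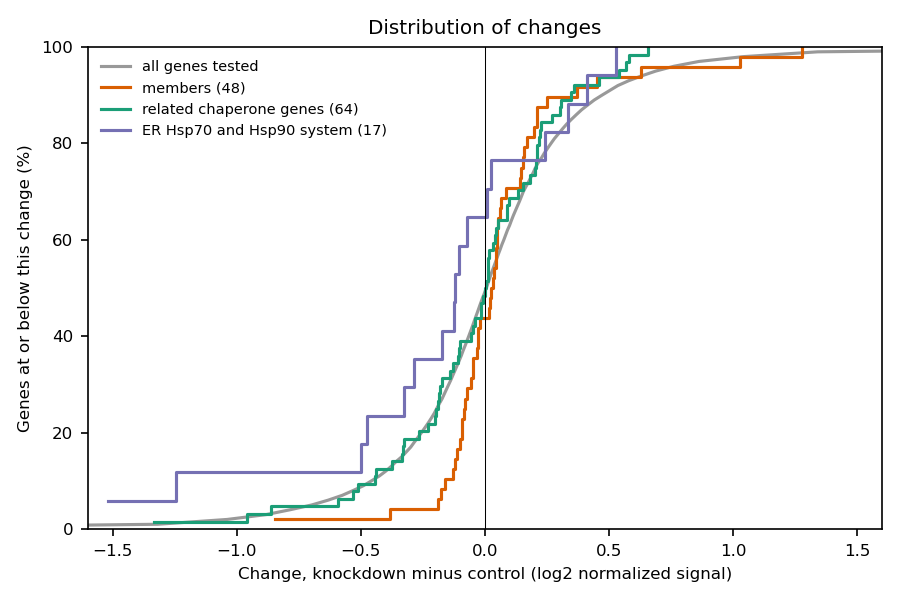
Cumulative distribution of changes (log2, knockdown minus control) for 48 members, 64 related chaperone genes, 17 genes of the ER list and all genes tested. The members' curve is the steepest, with its quartiles at -0.082 and 0.147, and the ER curve lies to the left, with a median of -0.12.

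The heat shock factors did not pass the test. Hsf1, the main activator of the heat shock response, changed by 0.086 (95% interval -0.038 to 0.210, adjusted p = 0.28), and by -0.031 with the median of each array. Hsf2, a relative active in development, changed by -0.081 (-0.220 to 0.059, adjusted p = 0.36).

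Among 9 tested Hsp70 and Hsp110 members, Hspa1a was the only one called (higher, 11.1%, beside 3.9% of all genes). Its probe, A_55_P2068459, read -2.94, -3.06 and -3.27 on control arrays 1 to 3 and -1.65, -1.90 and -1.88 on knockdown arrays 1 to 3. The groups did not overlap, and every knockdown array stood above the highest control by more than the range of the controls. The change was 1.28 (SE 0.115, 2.43-fold, adjusted p = 0.0022). Because Hspa1b is a close copy of Hspa1a and had no matched probe here, their transcripts cannot be told apart from this value. With the slide row as a term the change was 1.44.

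Of the 3 Hsp110 genes, whose products exchange the nucleotide of Hsp70, the brightest probes of Hsph1 and Hspa4 rose. Hsph1 read 5.25, 5.22 and 5.33 in control and 5.58, 5.48 and 5.49 in knockdown, a change of 0.25 (SE 0.055, adjusted p = 0.030). Hspa4 read 6.64, 6.58 and 6.62 in control and 6.84, 6.85 and 6.78 in knockdown, a change of 0.21 (SE 0.043, adjusted p = 0.025). Neither gene's groups overlapped, but the other 2 probes of Hspa4 changed by -0.045 and 0.044 and the mean of its probes by 0.070 (adjusted p = 0.43). The remaining Hsp110 gene, Hspa4l, changed by 0.14 (adjusted p = 0.12). Hspa8, the constitutive Hsp70, changed by -0.050 (95% interval -0.173 to 0.073), Hspa9, the mitochondrial one, by 0.051, and Hspa2, Hspa13 and Hspa14 by -0.11, -0.086 and 0.020, none past the test.

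None of the 3 Hsp90 members passed the test as reported, but Hsp90ab1 and Hsp90aa1 did with normexp correction (adjusted p = 0.026 and 0.049) and with a variance trend (0.012 and 0.030). Hsp90ab1, the constitutive cytosolic form, read 8.87, 8.81 and 8.76 in control and 8.69, 8.65 and 8.57 in knockdown, a change of -0.18 (95% interval -0.320 to -0.037, adjusted p = 0.080). Hsp90aa1, the inducible form, changed by -0.13 (adjusted p = 0.13) and the mitochondrial Trap1 by -0.093 (adjusted p = 0.20). Knockdown arrays lay below all controls for each of them, as for 27% of all genes. Hspd1 and Hspe1, which form the mitochondrial chaperonin from the shared promoter shown above, changed by -0.058 and -0.10 (adjusted p = 0.45 and 0.21). Over the 7 mitochondrial members of all roles, none passed the test and changes ran from -0.16 (Dnajc19, adjusted p = 0.052) to 0.064 (Dnajc15).

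The 3 small heat shock proteins, which hold unfolded chains without ATP, went in different directions. Hspb1 (Hsp27, probe A_55_P2039284) read -4.95, -4.80 and -5.20 in control and -3.50, -4.22 and -4.15 in knockdown. The probe was dim. It was well above background on all 6 arrays, but the lowest signal so flagged on an array was -6.57 to -5.72. The groups did not overlap, but knockdown array 1 stood apart from the other knockdown arrays. The change was 1.03 (SE 0.228, 2.04-fold, adjusted p = 0.032). Hspb1 was called in 9 of 19 alternative settings. Leaving out any array but knockdown array 1 ended the call, with adjusted p of 0.095, 0.069 and 0.091 without control 1, 2 and 3 and 0.052 and 0.067 without knockdown 2 and 3. Without knockdown array 1 the change was 0.80 (adjusted p = 0.034), and that array alone stood 1.48 above the control mean. After normexp correction it was 0.41, under the fold minimum.

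Hspb8, which works with Bag3 in the clearance of misfolded proteins, read 3.98, 3.88 and 4.0 in control and 3.62, 3.57 and 3.51 in knockdown. It fell by 0.38 on the log2 scale (SE 0.055, adjusted p = 0.0086), with no overlap of the groups, and the change was -0.33 with the slide row as a term. Cryab (alpha B-crystallin) read 1.52, 1.5 and 1.41 in control and 1.68, 1.74 and 1.63 in knockdown, a change of 0.21 that lay just beyond the threshold (adjusted p = 0.051). Its other probe gave 0.31 (adjusted p = 0.027).

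Of 14 tested J proteins, 3 rose (21.4%) and 1 fell (7.14%) past the adjusted p, beside 15.7% and 15.8% of all genes. Dnajc12, a J protein tied to the aromatic amino acid hydroxylases (among them tyrosine hydroxylase, the Th marker named above), read 1.14, 1.20 and 1.47 in control and 0.43, 0.40 and 0.43 in knockdown (probe A_51_P442284). All knockdown arrays were below the lowest control, with an SD of 0.016 (n = 3) among them. The change was -0.85 (SE 0.096, 1.80-fold lower, adjusted p = 0.0042). It was called in the 18 alternatives without the slide row, and with the slide row as a term the change was -0.84.

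Dnajc5 (cysteine string protein, a chaperone of synaptic vesicles) read 6.92, 7.05 and 6.86 in control and 7.38, 7.47 and 7.34 in knockdown, a change of 0.45 (SE 0.070, adjusted p = 0.011). This rests on its brightest probe: the other 2, on the same transcript, changed by 0.0096 and -0.0047, and the mean of the 3 by 0.15 (adjusted p = 0.064). With the slide row as a term the brightest probe gave 0.43. Dnajb4, a cytosolic partner of Hsp70, read -3.27, -3.18 and -3.03 in control and -2.78, -2.89 and -2.71 in knockdown, a change of 0.37 (SE 0.084, adjusted p = 0.033). Dnaja1, another such partner, read 6.63, 6.64 and 6.65 in control and 6.85, 6.82 and 6.84 in knockdown, a change of 0.20 (SE 0.038, adjusted p = 0.021). The groups of none of the 3 overlapped. Dnajb1 (Hsp40), a classical heat-inducible gene, changed by 0.16 (adjusted p = 0.063), likewise without overlap. It passed the adjusted p in 4 of 19 alternatives, among them quantile normalization (0.021) and a variance trend (0.0064). Dnajc6 was well above background on no control array and on 1 knockdown array, so no fold is given for it.

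Among 7 co-chaperones of Hsp70 and Hsp90, only Cdc37, which brings kinases to Hsp90, passed the test, lower (14.3%, beside 15.8% of all genes). It read 6.59, 6.55 and 6.56 in control and 6.39, 6.37 and 6.36 in knockdown, a change of -0.19 (SE 0.038, adjusted p = 0.024) without overlap. Bag3, an inducible exchange factor, changed by -0.020 (95% interval -0.132 to 0.091, adjusted p = 0.78), and its sign turned under quantile normalization (0.054). Stub1, a ubiquitin ligase that marks chaperone clients, changed by 0.15 (adjusted p = 0.096). Stip1, which joins Hsp70 to Hsp90 and whose promoter holds the 4 CCAAT boxes shown above, changed by 0.032 (95% interval -0.065 to 0.129).

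Of the members that passed the adjusted p but not the fold minimum, Hspb8 and Dnajc5 kept it with any array left out (up to 0.041 and 0.048). With each array left out in turn, Hspa4, Dnaja1 and Cdc37 lost the adjusted p each time (0.063 to 0.088, 0.053 to 0.083 and 0.059 to 0.091). Dnajb4 and Hsph1 lost it without any array except control 3 (0.058 to 0.104 and 0.073 to 0.101). With fewer arrays their changes stayed near those reported (0.196 to 0.230 for Hspa4 and 0.31 to 0.43 for Dnajb4), and all 5 genes kept their direction in the 19 alternatives run.

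**Figure D3:**
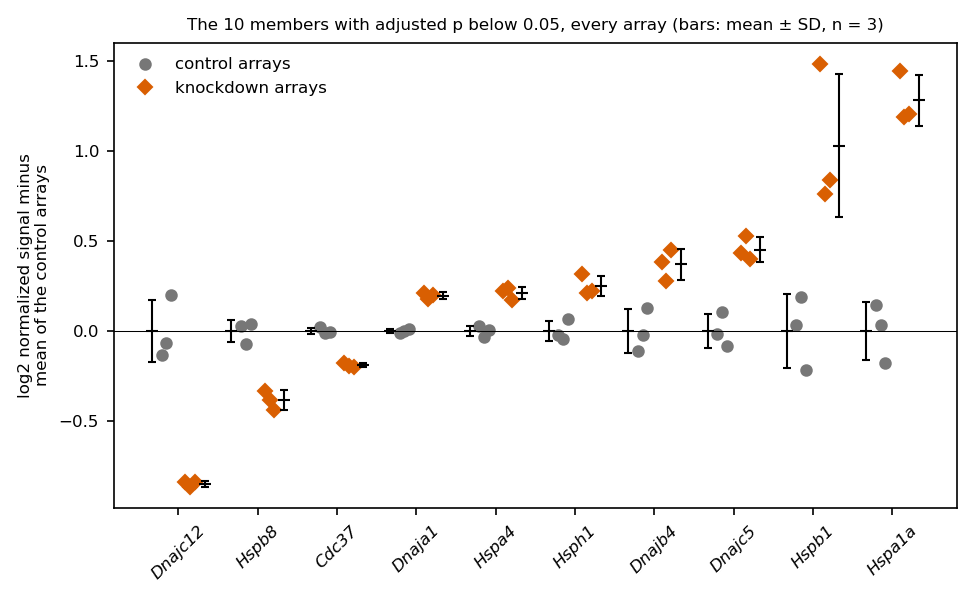
Every array's log2 normalized signal for the 10 members with an adjusted p below 0.05, relative to the control mean of the gene. Circles are control and diamonds knockdown arrays, in replicate order, and bars are mean ± SD (n = 3). The groups overlap for none of the 10, and knockdown array 1 of Hspb1 stands above the other knockdown arrays.

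The 8 subunits of TRiC, the cytosolic ring that folds actin and tubulin, gave the narrowest range among the larger roles. Their changes ran from -0.12 (Cct4, adjusted p = 0.16) to 0.049 (Tcp1), and their 95% intervals from -0.251 to 0.183, so for each subunit a 1.5-fold change in either direction lay outside the interval. None passed the test as reported. Cct4 did in 2 of 19 alternatives, normexp with the 75th percentile (adjusted p = 0.029) and a variance trend (0.043). Cct7, whose stretch with 3 CCAAT boxes is shown above, changed by -0.073 (95% interval -0.185 to 0.040).

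Members were also described by CCAAT in their windows, which leaves out the 11 members with none in the table, Dnajc12 and Dnajc5 among them. The 17 tested members with the motif had a median change of 0.020, from -0.19 (Cdc37) to 1.28 (Hspa1a), with 3 past the adjusted p higher and 1 lower. The 20 without it had a median of 0.041, from -0.38 (Hspb8) to 1.03 (Hspb1), also with 3 higher and 1 lower. Over all genes 15.7% were past the adjusted p higher and 15.8% lower. No test of a difference between members with and without the motif was made. For comparison, CCAAT stood in 47.8% of windows of genes called lower and 33.4% of those called higher in the whole series. The 4 members with the heat shock element of 3 units changed by -0.10 (Hspe1) to 0.25 (Hsph1). A list of classical heat-inducible members was taken from general knowledge, but with earlier results of these data known, so it is not independent of them. It holds Hspa1a, Hspa1b, Hspa8, Hspa4l, Hsph1, Hsp90aa1, Hsp90ab1, Hspd1, Hspe1, Hspb1, Hspb8, Cryab, Dnaja1, Dnajb1, Dnajb4, Bag3, Stip1 and Ahsa1. Hspa8 and Hsp90ab1 among these are the constitutive forms named above, so the name fits the list only in part. The 17 tested had a median change of 0.046, and 5 (29.4%) rose and 1 (5.88%) fell without the fold minimum. The shares of all genes were 15.7% and 15.8%, and no test of the list was made. Of the 5 that rose, Hspb1, Hsph1, Dnaja1 and Dnajb4 lost the adjusted p with most single arrays left out, as given above.

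For 14 members the array held several probes, 22 besides the brightest, on which the values above rest. Of the 22, 3 were higher and 3 lower past the adjusted p, beside 15.7% and 15.8% of all genes, each read from its brightest probe. Both probes of Hsph1 rose (0.25 and 0.29, adjusted p = 0.030 and 0.014), and the 3 probes of Hspe1 stood at -0.10, -0.11 and -0.12. In contrast, the other probes of Dnajc5 and Hspa4 stood near 0, as given above, and that of Dnaja1 changed by -0.17 (adjusted p = 0.050). This probe was dim, with a control mean of -3.22, but those of Hspa1a (-3.09) and Dnajb4 (-3.16) lay at a similar level. With the mean of its probes, Dnaja1 changed by 0.012 and did not pass the test. Hspa8 turned from -0.050 to 0.0017.

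The widest spread between probes was that of Dnajb6, a J protein that blocks aggregation of polyglutamine. The array named 2 of its 4 probes by one RefSeq transcript and 2 by another. The brightest, of the first transcript, read 2.64, 2.56 and 2.61 in control and 2.77, 2.77 and 2.72 in knockdown, a change of 0.14 that did not pass (adjusted p = 0.080), and its partner changed by 0.22 (adjusted p = 0.026). A probe of the second transcript, A_52_P630493, read 0.67, 0.63 and 0.77 in control and 0.09, 0.11 and -0.03 in knockdown. It fell by 0.64 on the log2 scale (SE 0.064, adjusted p = 0.0029) and was called lower in all 18 alternatives run for it. The other, A_55_P1964076, fell by 0.57 (SE 0.061, adjusted p = 0.0037). Against the brightest probe their changes differed by -0.71 (A_55_P1964076) and -0.78 (A_52_P630493).

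For Dnaja2 the probes of a single transcript gave 0.17 (adjusted p = 0.087) for the brightest probe and -0.35 (SE 0.042, adjusted p = 0.0049) for the other. The differences between probes are descriptions, since a two-sided exact permutation test over the 20 assignments of arrays cannot go below 0.1.

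**Figure D4:**
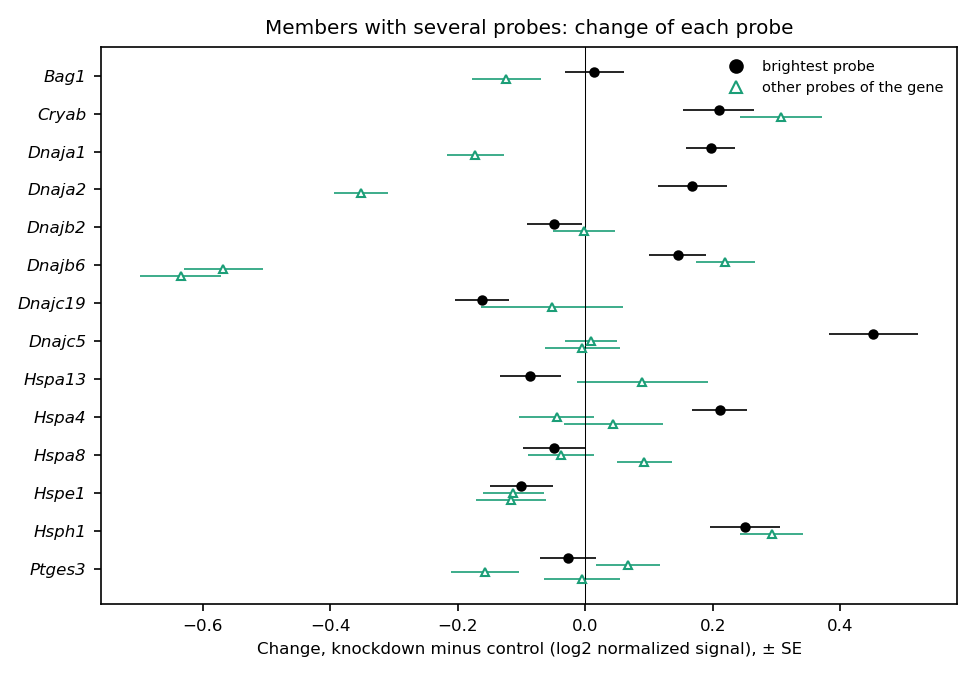
Change (log2, knockdown minus control) ± SE of every probe of the 14 members with several probes. Circles are the brightest probe and triangles the others. Dnajb6 has 2 probes above 0 and 2 near -0.6, while the probes of Hsph1, Hspe1 and Cryab lie together.

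Beyond the members, 69 related chaperone genes were listed, of which 64 were tested. Of these, 4 were called lower, none higher, and 13 fell and 11 rose without the fold minimum, with a median of 0.0020. Their shares called (6.25% lower) and past the adjusted p (20.3% lower and 17.2% higher) lay near those of all genes (5%, 15.8% and 15.7%). The largest change was that of Txndc9, which modulates TRiC, with 4.42, 4.40 and 4.43 in control and 3.07, 3.03 and 3.13 in knockdown. It fell by 1.33 on the log2 scale (SE 0.045, adjusted p = 0.00032). Tomm70a, the outer membrane receptor that takes chains from Hsp70 and Hsp90 into mitochondria, fell by 0.96 (SE 0.070). Hspb6 (Hsp20) read 1.76, 1.71 and 1.75 in control and 0.85, 0.88 and 0.90 in knockdown and fell by 0.86 (SE 0.042, adjusted p = 0.00052). Dnajc4, a mitochondrial J protein, fell by 0.59 (SE 0.051) and was called in 14 of 19 alternatives, while the other 3 were called in all 19.

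Upstream stretches of 3 of these genes are shown because they hold CCAAT boxes and the genes were called lower, with capitals marking CCAAT or ATTGG. They lie at chr7:30552340-30552499, plus strand (Hspb6), chr19:6992599-6992738, minus strand (Dnajc4) and chr1:37997209-37997288, minus strand (Txndc9).
Hspb6: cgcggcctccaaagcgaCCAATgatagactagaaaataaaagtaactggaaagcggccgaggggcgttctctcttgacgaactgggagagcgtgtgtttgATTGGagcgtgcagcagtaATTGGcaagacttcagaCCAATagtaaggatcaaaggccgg
Dnajc4: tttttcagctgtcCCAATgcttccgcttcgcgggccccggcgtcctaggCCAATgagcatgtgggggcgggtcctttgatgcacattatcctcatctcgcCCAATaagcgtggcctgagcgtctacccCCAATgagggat
Txndc9: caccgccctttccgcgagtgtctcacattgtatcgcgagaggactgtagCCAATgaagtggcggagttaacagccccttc
In the windows shown, Hspb6 and Dnajc4 hold 4 boxes each and Txndc9 holds 1. Where a gene had several windows, the one with the most matches was shown, and another window of Hspb6 held no CCAAT. Stip1, with 4 boxes as well, is the member that gave 0.032. The window of Tomm70a held no CCAAT, and CCAAT stood in 31.3% of all windows of the related genes.

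The ER chaperones of the Hsp70 and Hsp90 system, 17 genes all tested, had a median change of -0.12. Called lower were 2 of them, Hsp90b1 (Grp94, the ER form of Hsp90; -1.52, SE 0.065) and Sdf2l1 (a partner of ER Hsp70; -1.24, SE 0.061), and none was called higher. These 2 were 11.8% of the list, beside 5% of all genes, and without the fold minimum 6 fell (35.3%) and 4 rose (23.5%), beside 15.8% and 15.7%. Of their 15 windows 9 (60%) held CCAAT, beside 37.4% of all windows. The cytosolic and mitochondrial counterparts of Grp94, namely Hsp90aa1, Hsp90ab1 and Trap1, stood at -0.13, -0.18 and -0.093. The lists were set side by side and no test between them was made.

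**Figure D5:**
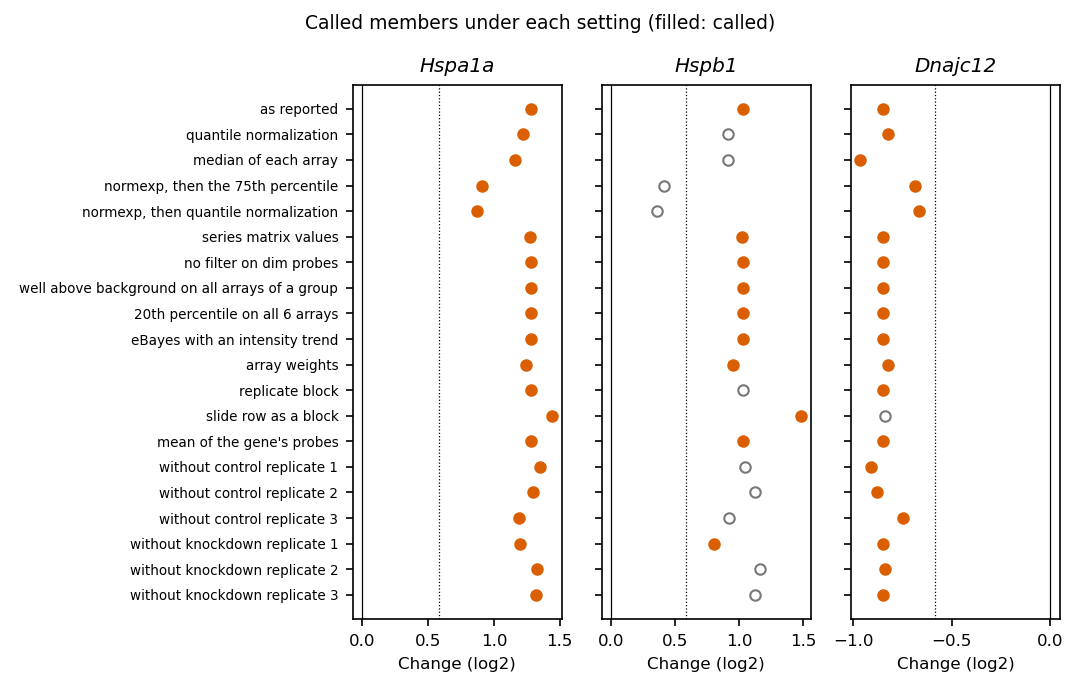
Change (log2, knockdown minus control) of the 3 called members as reported and under each of 19 alternative settings. Filled points were called and open ones were not, and dotted lines mark 1.5-fold. Hspa1a is filled throughout (0.87 to 1.44), Dnajc12 in all but the fit with slide row, whose p is not used, and Hspb1 in 9 alternatives.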

How the data were processed

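RNA of 3 control and 3 knockdown samples of neuro2a cells was hybridised in a single colour (Cy3) to Agilent mouse arrays, and groups and replicate numbers came from the sample titles. The authors ran Feature Extraction 10.10.1.1, and the intensity read for each spot was deposited as that software's processed signal, after background correction, with flags (another kind of value) for outliers, saturation and signal well above background, which were used as deposited. The series matrix deposited by the authors holds log2 values whose scale, centring and direction are not stated. For 43557 probes with 1 spot, values were centred on the probe's mean over the arrays. Those of the matrix lay within 0.0075 of those from the scanner tables with the 75th percentile taken off. The matrix was therefore read as that scaling centred per probe, with knockdown and control in the same direction. The number of arrays limits the precision. The 75th percentile was 718 to 754 intensity units, and 61.9% to 66.2% of spots were well above background.

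Control spots and outlier spots were dropped, log2 processed signal was taken less the 75th percentile of non-control spots, and spots of a probe were averaged. Probes at or above the 20th percentile on all arrays of at least 1 group were kept (42130). Symbols came from RefSeq (GRCm38.p6) by accession without version, for 26582 of 55681 probes. A gene was read from its brightest tested probe. Groups were compared with limma 3.58.1 (R 4.3.3; lmFit and eBayes, two-sided, no covariate), Benjamini-Hochberg over all probes, called at adjusted p below 0.05 and fold above 1.5. Motifs were searched on both strands of RefSeq promoter windows.

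The members, lists and tests were chosen with earlier results of these data known. Named are the targets, called members, up to 10 members with the largest change past the adjusted p, Hsf1, Hsf2, Hspa1a, Hspa1b, Hspa8, Hsp90aa1, Hsp90ab1, Dnajb1, Bag3, the largest change of each other role, and up to 5 called genes of the related and ER lists. Other members and probes were named after their values were seen. Normexp (offset 50) used the median and not the mean signal of a spot, since the tables used here hold the former. Same-numbered arrays did not deviate together (r = 0.018, 0.067 and 0.0025 across probes), so numbers were not used as pairs. Alternatives were other scalings, background corrections, filters, folds and probe rules, the series matrix, a variance trend, array weights, replicate and slide row blocks, and leaving out each array.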

Additional observations from a re-analysis of the deposited data

How the results depend on the processing

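Hspa1a was called in all 19 alternatives and Dnajc12 in 18. The count of members called higher was 1, in place of 2, with quantile normalization, the median of each array, normexp with either scaling, and the replicate block, and 1 to 2 with an array left out. The count called lower, 1 as reported, was 2 at a fold minimum of 1.3 and 0 at 2. Without a fold minimum, the count higher was 7 as reported, beside 15.7% of all genes. It was 11 (quantile, 18.2% of all genes), 2 (median of each array, 5.2%), 11 (normexp, 18.3%) and 14 (normexp and quantile, 20.4%). It was 3 with no filter on dim probes (10.1%), 13 with a variance trend (21.1%) and 2 to 4 with an array left out (9.21% to 11.5%). The count lower, 3 as reported, was 7 with normexp (17.1% of all genes) and 7 with the trend (20.9%), beside 15.8% as reported. With the replicate block 2 members were higher and 2 lower past the adjusted p (8.05% and 9.72% of all genes), and Hspb1 lost its call (adjusted p = 0.071). The labels do not say whether same-numbered arrays belong together, and the correlations given above cannot exclude it. What the lost call means was not tested. The members' median, 0.029 as reported, was 0.090 (quantile), -0.088 (median of each array) and 0.094 (normexp and quantile), beside 0.0050, -0.11 and 0.0064 over all genes. Signs turned for Bag3 (0.054 with quantile, 0.060 with normexp and quantile), Hsf1 (-0.031 with the median of each array) and Hspa8 (0.039 with quantile, 0.098 with normexp and quantile, 0.0017 with the mean of probes). Fewer arrays or a further term leave fewer degrees of freedom, and for other settings the cause was not tested. With 3 arrays a group, the smallest changes past the adjusted p were -0.19 (Cdc37) and 0.20 (Dnaja1), and Dnajc6 was too dim for a value.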
